A study of Mus musculus with 17 samples.

Results

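The genes described here are the regional homeobox and paired-box transcription factors of the mouse brain: the Hox, Lhx, Irx, Nkx, Dlx, sine oculis, Pax and Pou families. They were chosen by gene symbol alone, with Pax5, Pou4f1 and Pou4f2 left out, and 42 of the 20328 genes in the RNA-seq table matched. The RNA came from the brain of wild-type ICR mice, lesioned at 8 weeks of age in the substantia nigra by a unilateral injection of 6-OHDA (10 µg per µl), a toxin that enters and kills catecholamine neurons. The groups were a sham control (2 libraries), the 6-OHDA lesion (1 library) and the lesion followed 5 days later by 2 µl of NDST3 (2 libraries), which encodes an enzyme that modifies heparan sulfate. Because the lesion group was a single library, its spread was taken from the sham and treated groups, and whether the libraries of a group came from separate animals is not given in the sources used here, so p-values measure only the spread between these libraries. The 5 libraries held 51003699 to 70533326 counted reads, of which 18440 to 38817 fell on the members.

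Homeodomain and paired-domain proteins bind DNA and set regional identity along the axes of the embryonic nervous system, and many stay on in the neurons and glia of the region where they acted. Hox genes mark the hindbrain and spinal cord, Dlx genes and Lhx6 the inhibitory neurons of the forebrain, and Pax7, Lhx1, Lhx5 and Irx genes are known from the midbrain and its surroundings. Their levels in a dissected piece of brain therefore also depend on which regions and cells the piece contains. In bulk RNA, fewer cells of a type and less RNA per cell cannot be told apart.

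The members formed an anterior set. By gene symbol, 100 RefSeq mouse genes match the same rule, and all 6 Irx genes, 6 of 8 Lhx, 5 of 6 sine oculis, 5 of 8 Pax, 9 of 13 Pou, 6 of 14 Nkx and 3 of 6 Dlx genes were listed, but 2 of 39 Hox genes. No listed gene had a count of 0 in any library, and the other 58 genes were not analysed here. Per unit of length, the highest members over all 5 libraries were Pou3f3 with a mean of 16.3 FPKM, Nkx6-2 with 16.3 FPKM and Pou6f1 with 12.6 FPKM, followed by Irx1 with 6.86 FPKM, Irx2 with 6.82 FPKM and Lhx9 with 6.49 FPKM. At the other end stood Hoxb4, a hindbrain and blood stem cell gene, with 0.0658 FPKM. Nkx6-3, an Nkx6 gene, had 0.0437 FPKM and 0.101 to 0.145 CPM (counts scaled to 1000000 reads per library) in every library, fell below the filter on low counts and was not tested, while Dlx3 passed it with 0.0869 to 0.235 CPM, which left 41 tested members.

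**Figure D1:**
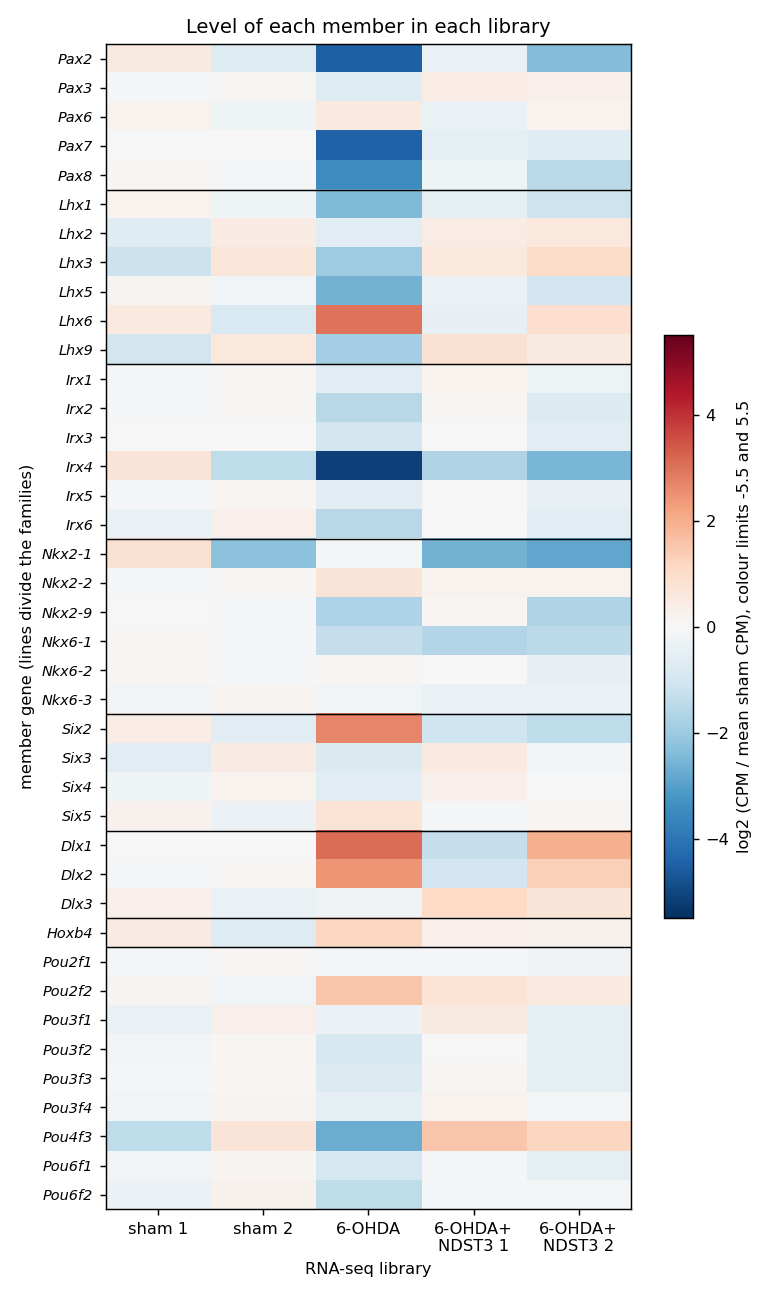
Level of 40 of the members (rows, grouped by family) in the 5 RNA-seq libraries (columns), as the log2 ratio of CPM to the mean of the 2 sham libraries, with blue for lower and red for higher. The 6-OHDA column is blue for most Pax, Lhx and Irx genes and red for Six2, Lhx6, Dlx1 and Dlx2, and the 2 treated columns are paler.

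Replicates of the members spread more than those of other genes. The 2 sham libraries differed by 2-fold or more in 10 of 41 members (24.4%, against 7.68% of all 19300 tested genes), and the 2 treated libraries in 7 of 41 (17.1%, against 8.77%). Lhx9, a LIM homeobox gene of the thalamus and hypothalamus, had 13.7 and 41.2 CPM in the sham libraries. Nkx2-1, the ventral forebrain and hypothalamic factor, had 3.51 CPM in sham 1 and 0.406 CPM in sham 2. Dlx1 had 0.235 and 2.31 CPM in the treated libraries. In each of these genes the replicates of a group differed several-fold.

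The comparison of 6-OHDA with sham asked which members differed after the lesion. Of the 41 tested members, 14 passed an adjusted p of 0.05 in edgeR's quasi-likelihood test, 9 of them lower in the lesion library (Pax7, Pax8, Lhx1, Lhx5, Irx2, Irx3, Irx4, Nkx6-1 and Pou6f1) and 5 higher, among them Six2, Lhx6, Pou2f2 and Nkx2-2. Over all genes the same test called 17.1% lower and 18.8% higher, so the number of members called was near the background in sum. By the study's own threshold of a 2-fold change and a raw p under 0.05, 12 members were lower and 7 higher, beside 10.1% and 14.4% of all genes. The median log2 fold change was -0.65 over the members, with 29 negative and 12 positive, and 0.00 over all genes. No member, and no gene of the table, passed the adjusted threshold when either sham library was left out, and without sham 2 the fold and raw p threshold called 10 members in place of 19, so every adjusted call below rests on both sham libraries.

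Of the 5 paired-box genes 2 passed, both lower after 6-OHDA, beside 17.1% of all genes called lower. Pax7, a factor of the dorsal midbrain, had 14.9 and 15.1 CPM in the sham libraries, 0.678 CPM in the lesion library, and 10.4 and 9.38 CPM in the treated libraries. The lesion value lay far outside both pairs, the fold change was -4.46 ± 0.23 on the log2 scale (SE), and the adjusted p from edgeR was 0.00823. Pax8, which acts with Pax2 at the boundary of midbrain and hindbrain, had 2.89 and 2.59 CPM in sham, 0.252 CPM after 6-OHDA, and 2.32 and 0.972 CPM with NDST3. It fell by 3.43 on the log2 scale (edgeR adjusted p = 0.0225). Pax2 itself had 2.45 and 1.07 CPM in sham and 0.0775 CPM in the lesion library, and missed the threshold with an edgeR adjusted p of 0.0568. Pax3, a dorsal neural tube gene, had a log2 fold change of -0.70 ± 0.31 and Pax6, the eye and forebrain factor, one of 0.56 ± 0.33, and neither passed.

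Among the LIM homeobox genes the related Lhx1 and Lhx5, which specify interneurons and early diencephalic and midbrain neurons, fell together. Lhx1 had 16.3 and 12.2 CPM in sham, 2.61 CPM in the lesion library, and 10.1 and 6.47 CPM in the treated libraries, a fall by 2.44 on the log2 scale (edgeR adjusted p = 0.012). Lhx5 had 17.5 and 14.5 CPM, 2.61 CPM, and 12.9 and 7.72 CPM in the same order, a fall by 2.61 (edgeR adjusted p = 0.0109). In both genes all 3 groups were separated, with the treated libraries between sham and lesion. Lhx6, the gene of cortical and pallidal interneurons, went the other way, with 1.07 and 0.42 CPM in sham, 5.81 CPM after the lesion, and 0.538 and 1.41 CPM with NDST3. Its log2 fold change was 2.98 ± 0.74 (edgeR adjusted p = 0.0349). Lhx2, Lhx3 and Lhx9 were lower without passing. Lhx3, a motor neuron and pituitary gene, rested on 3 reads in the lesion library, and sham exceeded it by a ratio of 4.16 (95% exact counting interval 1.29 to 21.3).

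**Figure D2:**
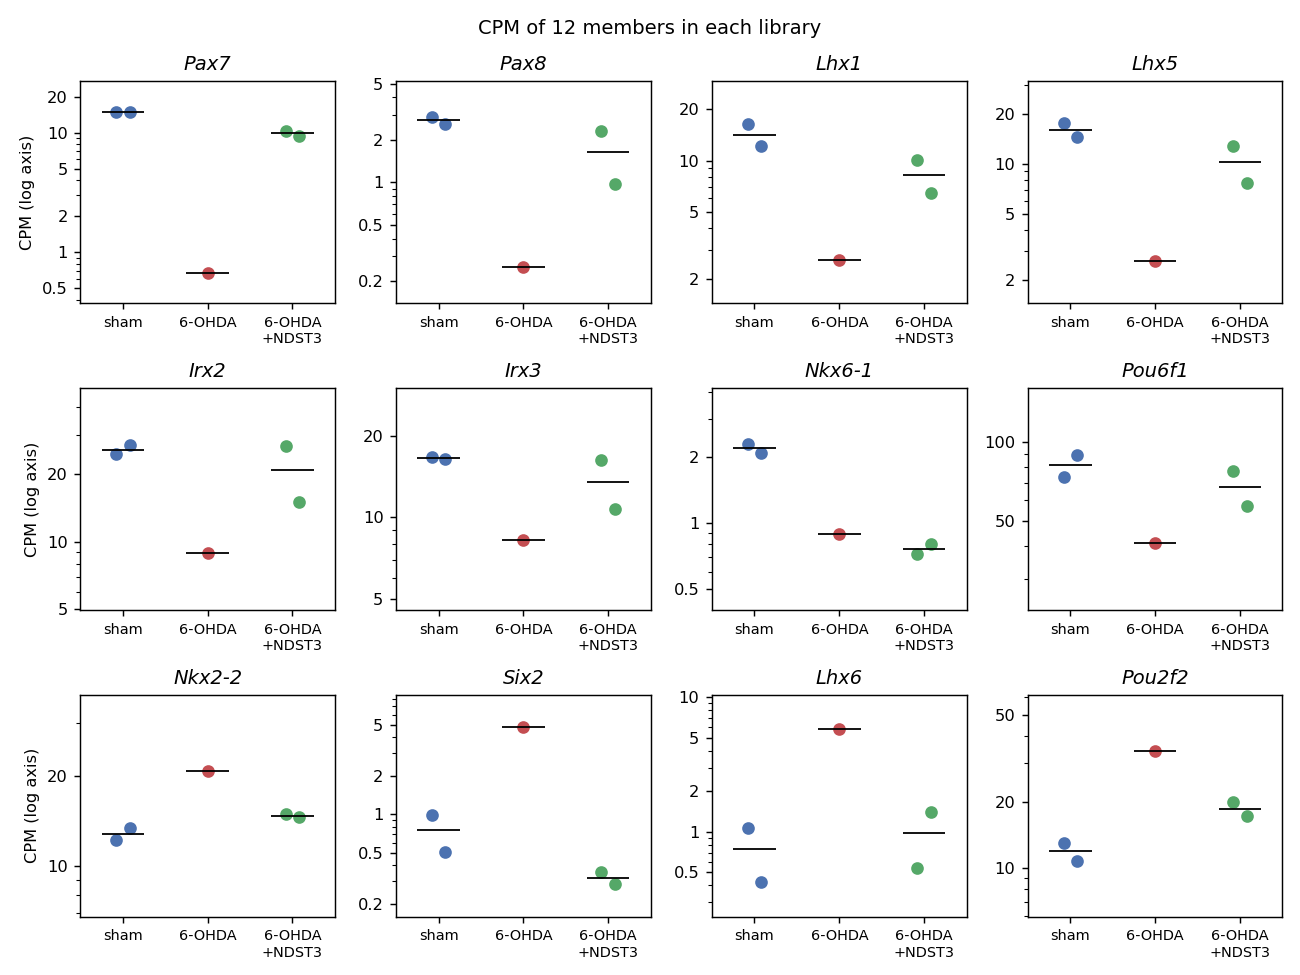
CPM on a log axis of 12 members that passed the adjusted threshold in the comparison of 6-OHDA with sham. Each point is a library and each bar the mean of a group. The lesion point is lowest in 7 panels (Pax7, Pax8, Lhx1, Lhx5, Irx2, Irx3 and Pou6f1) and highest in 4 (Nkx2-2, Six2, Lhx6 and Pou2f2), and in the Nkx6-1 panel the 2 treated points lie below it.

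All 6 Iroquois genes, which pattern the midbrain and dorsal neural tube, had negative fold changes after 6-OHDA, beside 9682 of all 19300 tested genes. Of the 6, 3 passed as lower, beside 17.1% of all genes. Irx2 had 24.6 and 26.9 CPM in sham, 8.95 CPM after 6-OHDA, and 26.7 and 15.1 CPM with NDST3, a fall by 1.53 on the log2 scale (edgeR adjusted p = 0.0338). Irx3 had 16.6 and 16.3 CPM, 8.23 CPM, and 16.2 and 10.7 CPM, a fall by 1.00 (edgeR adjusted p = 0.0494). The 2 treated libraries differed here, the first near sham and the second between sham and lesion. Irx4 had 2.17 and 0.507 CPM in sham and only 2 reads in the lesion library, and sham exceeded it by a ratio of 31.6 (95% exact counting interval 8.6 to 264, edgeR adjusted p = 0.0494). Irx1, the Irx gene with the highest FPKM, had 15.6 and 16.9 CPM in sham, 10.9 CPM after 6-OHDA, and 18.7 and 13.5 CPM with NDST3, and did not pass (edgeR adjusted p = 0.12).

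In the Nkx family, Nkx6-1, a ventral midbrain and hindbrain gene, had 2.31 and 2.1 CPM in sham, 0.891 CPM after the lesion, and 0.722 and 0.804 CPM with NDST3. It fell by 1.31 on the log2 scale (edgeR adjusted p = 0.0457), and the treated libraries stayed below the lesion library. Nkx2-2, a ventral neural tube and oligodendrocyte lineage gene, had 12.2 and 13.4 CPM in sham, 20.7 CPM after 6-OHDA, and 14.9 and 14.5 CPM with NDST3, with a log2 fold change of 0.69 ± 0.14 (edgeR adjusted p = 0.0223). Nkx6-2, the member of the family with the highest FPKM and a gene of myelinating oligodendrocytes, had 36.0 and 32.7 CPM in sham, 35.8 CPM after the lesion, and 35.0 and 25.2 CPM with NDST3. Its log2 fold change of 0.06 ± 0.22 was smaller than its error.

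Six2, a relative of the Drosophila sine oculis gene known from kidney and craniofacial mesenchyme, had 0.99 and 0.507 CPM in sham, 4.80 CPM after 6-OHDA, and 0.353 and 0.285 CPM with NDST3. It was several times higher in the lesion library than in any other, with a log2 fold change of 2.69 ± 0.48 (edgeR adjusted p = 0.0149). Six3, its neighbour 36.5 kb away on chromosome 17, did not follow, with a log2 fold change of -0.78 ± 0.53 that did not pass. Six3, the forebrain and hypothalamic member with the highest FPKM of the family, had 13.3 and 27.8 CPM in sham and 12 CPM in the lesion library. Six4 had a log2 fold change of -0.65 ± 0.35 and Six5 one of 0.74 ± 0.35, and neither passed.

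Dlx1 and Dlx2, neighbours 9.43 kb apart on chromosome 2 that act in forebrain inhibitory neurons, were also highest in the lesion library. Dlx1 had 0.582 and 0.594 CPM in sham, 4.96 CPM after 6-OHDA, and 0.235 and 2.31 CPM with NDST3. Dlx2 had 0.272 and 0.29 CPM, 1.49 CPM, and 0.134 and 0.704 CPM. The spread of the treated pair was wide, and neither passed (edgeR adjusted p = 0.0922 and 0.0913). Hotairm1, the only one of 10 Hox cluster noncoding RNAs looked for that was listed, had 0.252 and 0.217 CPM in sham and 0.639 CPM after the lesion (edgeR adjusted p = 0.0645).

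Of the 9 POU genes 8 had negative fold changes, beside 9682 of all 19300 tested genes. In each direction 1 passed, beside 17.1% of all genes called lower and 18.8% called higher. Pou6f1, a broadly expressed neuronal POU gene, had 73.6 and 89.4 CPM in sham, 41.3 CPM after 6-OHDA, and 77.5 and 57.2 CPM with NDST3, a fall by 0.98 on the log2 scale (edgeR adjusted p = 0.0311). Pou2f2, the octamer-binding factor OCT2 of B cells and myeloid cells, had 13.0 and 10.8 CPM, 34.3 CPM, and 19.9 and 17.2 CPM in the same order. The groups did not overlap, and its log2 fold change of 1.53 ± 0.18 had an edgeR adjusted p of 0.00847. Pou3f3, the most abundant member per length and a cortical neuron gene, had 82.0 and 96.4 CPM in sham, 52.9 CPM after 6-OHDA, and 92.9 and 64.2 CPM with NDST3 (edgeR adjusted p = 0.0746). Pou2f1, the ubiquitous relative OCT1, stayed at 22.3 to 26.7 CPM in all 5 libraries. Pou4f3, a sensory neuron gene, had 2 reads in the lesion library, and sham exceeded it by a ratio of 7.31 (95% exact counting interval 1.88 to 62.8).

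Grouped by the brain region where they are best known, the midbrain and isthmus genes (Pax2, Pax3, Pax7, Pax8, Lhx1, Lhx5, Nkx6-1, Nkx2-2, Irx1, Irx2, Irx3 and Irx5) had negative fold changes in 11 of 12, with 7 called lower, 1 called higher and a median log2 fold change of -1.42, beside 17.1% of all genes called lower, 18.8% called higher and a median of 0.00. Their summed level was 132 to 135 CPM in sham, 62.5 CPM after 6-OHDA and 88.2 to 126 CPM with NDST3. The 5 listed ventral forebrain genes (Dlx1, Dlx2, Lhx6, Nkx2-1 and Six3) had a median of 2.40, with 3 positive and 2 negative. Of these 1 was called higher (18.8% of all genes). Their summed level was 18.8 to 29.5 CPM in sham, 26.1 CPM after 6-OHDA and 23.2 to 31.2 CPM with NDST3. The 4 listed hypothalamic genes (Nkx2-1, Six3, Lhx6 and Lhx9) had a median of -0.44, with 3 negative and 1 called higher (18.8% of all genes). They summed to 31.6 to 69.8 CPM in sham, 27.2 CPM after 6-OHDA and 59.2 to 79.5 CPM with NDST3. The 5 dorsal forebrain and thalamic genes (Lhx2, Lhx9, Pax6, Pou3f2 and Pou3f3) had a median of -0.75, with 0 called in edgeR and 3 at a raw p under 0.05. These lists were drawn up with earlier results of the same libraries known and are a description.

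Markers of other cells and regions moved in the same libraries, and their part in the members' values was not tested. The counts called stand beside 17.1% lower and 18.8% higher of all genes. All 8 pan-neuronal markers were called lower after 6-OHDA, with a summed level of 5938 to 6540 CPM in sham, 2269 CPM in the lesion library and 4598 to 5179 CPM with NDST3. All 8 dopaminergic markers fell as well, from 692 to 734 CPM to 24.0 CPM, and stood at 91.3 to 127 CPM with NDST3, and the 5 serotonergic markers from 151 to 335 CPM to 11.3 CPM, and stood at 127 to 159 CPM. Opposite to these, 4 of 5 mural and fibroblast markers were called higher, with 133 to 204 CPM in sham, 603 CPM after the lesion and 93.4 to 127 CPM with NDST3. The 4 listed microglial and macrophage markers were all called higher, with 149 to 198 CPM, 902 CPM and 373 to 522 CPM. Of the 5 astrocyte markers 4 were called higher, with 1707 to 2607 CPM in sham, 9545 CPM after the lesion and 3909 to 5201 CPM with NDST3.

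Peptide genes of the hypothalamus, which lies next to the midbrain, moved too. The counts called in this paragraph also stand beside 18.8% higher and 17.1% lower of all genes. Of 7 tested hypothalamic peptide genes 3 were called higher after 6-OHDA (Hcrt, Pmch and Oxt) and Cartpt lower. The summed level of the list was 83.9 to 125 CPM in sham, 179 CPM in the lesion library and 50.1 to 75.9 CPM with NDST3. Hcrt, the orexin precursor of lateral hypothalamic neurons, had 0.369 and 1.06 CPM in sham, 58.6 CPM after 6-OHDA, and 0.739 and 0.0335 CPM with NDST3. Pmch, the precursor of melanin-concentrating hormone in the same area, had 0.485 and 3.97 CPM, 100.4 CPM, and 1.39 and 1.49 CPM in the same order. The lesion library stood far above the other 4 libraries for both peptides, which were chosen for naming after their values were seen. The 4 thalamic markers had 258 to 322 CPM in sham, 527 CPM after the lesion and 257 to 691 CPM with NDST3, with 0 called in edgeR and 0 at a raw p under 0.05. The 5 listed cortical and hippocampal markers had 33.9 to 35.7 CPM, 67.7 CPM and 33.4 to 60.0 CPM, with 2 called higher. The second treated library alone held 1110 CPM of choroid plexus markers, against 7.32 to 54.4 CPM in the other 4 libraries. No listed marker stood at 0, but no listed gene of any kind had a count of 0 in any library, so this was fixed in advance. Mouse Ndst3 itself had 14.1 and 21.0 CPM in sham, 7.92 CPM after 6-OHDA and 23.3 and 13.4 CPM with NDST3, with the first treated library above both sham libraries and the second below both. The study's methods describe an adeno-associated virus built with human NDST3, and the table lists the mouse gene only. The mouse counts therefore need not reflect the delivered gene.

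Promoter sequence was read for the members that changed after the lesion and whose outermost gene start is in the RefSeq promoter table (GRCm38.p6). Of the 5 such members, 4 are printed here: the fallers Lhx1 and Pax8, the riser Six2, and Nkx6-1, which was low in lesion and treated libraries alike. Irx3, another faller, is given below by its counts only. Each run is the 250 bases upstream of the start, read 5′ to 3′ on the minus strand, with capitals marking a CCAAT box (CCAAT or its complement ATTGG) and a GC box (GGGCGG or its complement CCGCCC), searched on both strands.
Lhx1, chr11:84525535-84525784: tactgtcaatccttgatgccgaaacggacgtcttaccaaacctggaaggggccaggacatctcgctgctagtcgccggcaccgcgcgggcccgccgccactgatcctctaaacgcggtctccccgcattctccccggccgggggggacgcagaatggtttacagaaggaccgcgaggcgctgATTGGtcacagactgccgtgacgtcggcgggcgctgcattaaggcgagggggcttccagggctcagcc
Pax8, chr2:24475600-24475849: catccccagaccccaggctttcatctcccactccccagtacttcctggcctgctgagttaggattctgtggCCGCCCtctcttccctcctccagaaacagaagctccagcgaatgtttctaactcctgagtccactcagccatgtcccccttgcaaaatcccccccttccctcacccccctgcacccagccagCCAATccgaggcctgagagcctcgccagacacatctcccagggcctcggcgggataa
Six2, chr17:85688255-85688504: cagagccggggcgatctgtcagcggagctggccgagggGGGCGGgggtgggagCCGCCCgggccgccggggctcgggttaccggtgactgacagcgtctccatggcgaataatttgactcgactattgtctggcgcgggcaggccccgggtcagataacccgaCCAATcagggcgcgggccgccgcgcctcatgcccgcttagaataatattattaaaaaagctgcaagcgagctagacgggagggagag
Nkx6-1, chr5:101664712-101664961: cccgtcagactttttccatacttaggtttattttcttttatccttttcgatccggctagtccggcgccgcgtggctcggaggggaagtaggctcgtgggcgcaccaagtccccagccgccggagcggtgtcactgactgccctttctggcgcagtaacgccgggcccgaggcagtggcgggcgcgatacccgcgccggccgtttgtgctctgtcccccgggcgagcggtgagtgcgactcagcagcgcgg
The Lhx1 run held 1 CCAAT box beginning 68 bases before the start, and Pax8 a CCAAT box and a GC box. Six2 held a CCAAT box and 2 GC boxes, and Nkx6-1 and the unprinted Irx3 held neither. A CCAAT box occurred in 15 of the 40 starts of members in the table (37.5%) and in 33.8% of all 32851 starts, and a GC box in 24 of 40 (60.0%) and in 32.7%. TAATTA, a core that many homeodomains bind, was in 0 of the 40 member windows and in 4.84% of all windows. The median number of CG pairs per window was 15 in the members and 6 in all starts. There were 26 in Lhx1, 26 in Six2, 30 in Nkx6-1, 13 in Irx3 and 6 in Pax8.

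The comparison of 6-OHDA+NDST3 with 6-OHDA asked how the members differed after treatment. It shares the lesion library with the comparison above, so opposite signs in the 2 comparisons are partly set by that 1 library. In edgeR, 3 members passed the adjusted threshold as higher with NDST3 (Pax7, Lhx1 and Lhx5) and 4 as lower, among them Six2 and Pou2f2, beside 9.06% and 6.59% of all genes. By the 2-fold and raw p threshold, 11 were higher and 4 lower, beside 7.30% and 8.37%. The median log2 fold change was 0.65 over the members, with 26 positive and 15 negative, and 0.00 over all genes. No member passed the adjusted threshold when only these 2 groups were fitted, where 0 of 19091 genes passed. Without sham 1, sham 2 or the first treated library the members' calls were lost, as were all or nearly all calls over all genes. Calls remained without the second treated library, among the members and over all genes.

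Pax7 had a log2 fold change of 3.86 ± 0.22 (edgeR adjusted p = 0.032) and the lesion value far below both treated libraries. Lhx5 had 1.98 ± 0.39 (edgeR adjusted p = 0.0401) and Lhx1 1.66 ± 0.38 (edgeR adjusted p = 0.0481). Six2 had -3.90 ± 0.50 (edgeR adjusted p = 0.032), which took it below its sham level. Pou2f2 had -0.89 ± 0.18 (edgeR adjusted p = 0.042), which left it above sham in both treated libraries. All 6 Irx genes had positive fold changes, from 0.42 to 3.01, and none of them passed. Over all genes 9686 of 19300 were positive. Pax8 (edgeR adjusted p = 0.0617), Lhx9 (0.072), Lhx6 (0.0722), Nkx2-2 (0.0773) and Pou4f3 (0.0788) were next in order without passing, and Nkx6-1 had -0.22 ± 0.35.

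**Figure D3:**
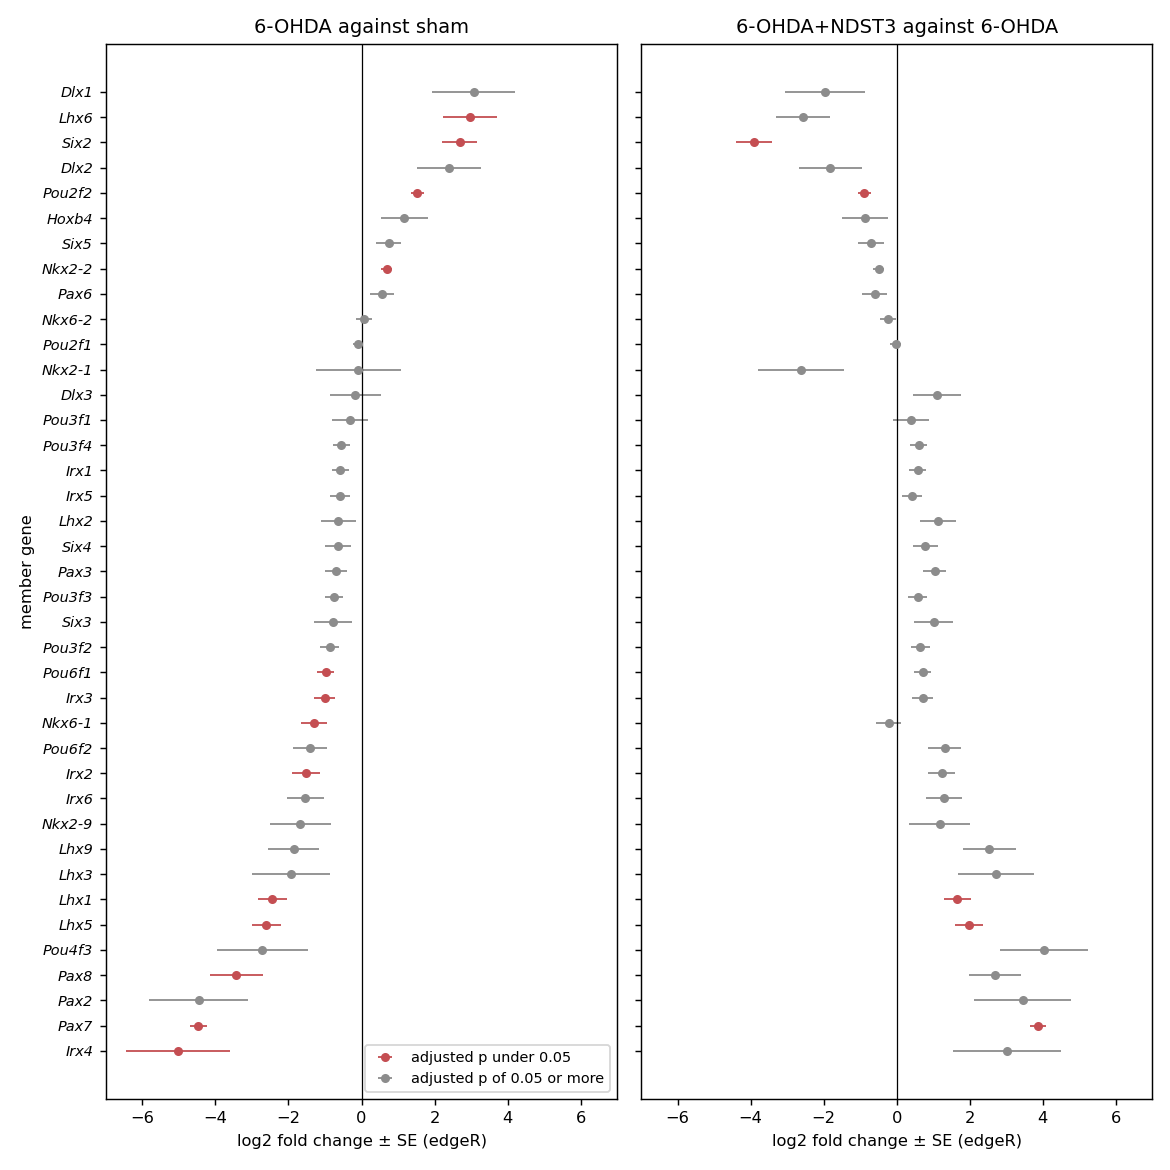
Log2 fold change with its standard error of 39 of the tested members, for 6-OHDA against sham (left) and 6-OHDA+NDST3 against 6-OHDA (right), in the order of the left panel, with red for an edgeR adjusted p under 0.05. Both panels contain the same lesion library. Pax7 is at -4.46 and 3.86, Six2 at 2.69 and -3.90, and Nkx6-1 is negative on both sides.

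Set against sham, the treated libraries showed no member past the adjusted threshold in edgeR (0 of 41, and 0.0% of all genes both higher and lower). A raw p under 0.05 was reached by 5 members, against 2744 of the 19300 genes, and DESeq2 called 3, namely Nkx6-1, Pax7 and Pou2f2. By the 2-fold and raw p threshold 0 members were higher and 2 lower, Nkx6-1 and Six2, beside 4.78% and 1.08% of all genes. By that threshold 1 member passed without sham 1, 8 without sham 2 and 9 without the first treated library. Nkx6-1 had a log2 fold change of -1.53 ± 0.28 (edgeR adjusted p = 0.163), and its 2 sham libraries lay above the other 3 libraries. Pax7 had -0.60 ± 0.14 (edgeR adjusted p = 0.195), Pou2f2 0.64 ± 0.15 (edgeR adjusted p = 0.20) and Six2 -1.21 ± 0.45 (edgeR adjusted p = 0.332), with no overlap between the groups. In the families, the members with the largest difference in size were Nkx2-1 with -2.72 ± 1.06, Irx4 with -2.02 ± 0.81, Pou4f3 with 1.31 ± 0.68, Dlx1 with 1.11 ± 0.99, Pax2 with -1.02 ± 0.78 and Lhx1 with -0.78 ± 0.28, and none passed. An absent call here does not show that treated and sham levels were equal.

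The proteins that work with these factors were looked at from lists of known partners. Of the 9 Pbx, Meis and Pknox genes, whose products bind DNA together with Hox and other homeodomain proteins, 8 had negative fold changes after 6-OHDA and 3 were called lower (17.1% of all genes were). Pbx4 had 5.44 and 5.72 CPM in sham, 2.36 CPM after the lesion, and 4.92 and 4.69 CPM with NDST3, and fell by 1.24 on the log2 scale (edgeR adjusted p = 0.0189). Meis2 had 40.5 and 69.3 CPM, 16.9 CPM, and 77.8 and 40.2 CPM, without passing (edgeR adjusted p = 0.062). None of the 9 was called in edgeR with NDST3 against 6-OHDA (9.06% of all genes higher and 6.59% lower), where 4 had a raw p under 0.05 and 8 were positive.

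Of the 6 LIM partners, the Ldb bridging proteins and the LIM-only proteins that compete with Lhx factors for them, 3 were called lower and 2 higher after 6-OHDA, beside 17.1% and 18.8% of all genes. Ldb2 had 22.4 and 35.9 CPM in sham, 9.53 CPM after the lesion, and 32.5 and 28.6 CPM with NDST3 (log2 fold change -1.61 ± 0.33, edgeR adjusted p = 0.0203). Lmo2, a blood and endothelial gene, had 16.8 and 15.8 CPM, 52.3 CPM, and 23.6 and 32.0 CPM (log2 fold change 1.68 ± 0.20, edgeR adjusted p = 0.0085). Ldb1, the general partner, stayed at 76.7 to 82.3 CPM. With NDST3 against 6-OHDA, 2 of the 6 were called higher, among them Ldb2, and 2 lower, among them Lmo2. Over all genes 9.06% were called higher and 6.59% lower. Of the 6 sine oculis partners, Eya4, a phosphatase coactivator of sine oculis proteins, was called higher with 3.40 and 1.48 CPM in sham, 14.7 CPM after 6-OHDA, and 3.88 and 7.54 CPM with NDST3, and the repressor Dach1 was called lower (edgeR adjusted p = 0.0275 and 0.0298). Eya2 was called lower with NDST3 against 6-OHDA, by 1.81 on the log2 scale (edgeR adjusted p = 0.046).

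Of the 19 Polycomb and trithorax genes, which keep homeobox genes silent or active, 4 were called higher after 6-OHDA (Ezh2, Eed, Rnf2 and Bmi1) and 3 lower, among them Ezh1 and Cbx7. Over all genes 18.8% were called higher and 17.1% lower, so the group's counts were near the background. The paired methyltransferases went opposite ways. Ezh2, the form of dividing cells, had 4.93 and 5.04 CPM in sham, 11.6 CPM in the lesion library, and 5.69 and 5.80 CPM with NDST3 (log2 fold change 1.22 ± 0.19, edgeR adjusted p = 0.0109), and Ezh1, the form of resting cells, had 58.4 and 65.5 CPM, 38.5 CPM, and 59.6 and 57.7 CPM (log2 fold change -0.69 ± 0.12, edgeR adjusted p = 0.0147). The 6 Groucho corepressors had 0 calls in edgeR in any comparison, with 1 at a raw p under 0.05 after 6-OHDA.

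Chromatin near the members was covered thinly. The CUT&RUN table of H3K27ac, a mark of active promoters and enhancers, gives 1 value per group for 11424 regions within 1 kb of a gene start, and 3 of these belong to members. The deposited values have no replicates to compare and no stated scaling, so differences are described with no test, and a region was counted as different at a ratio of 2 after adding 1 to each value. At Pou3f2, a POU gene of cortical and hypothalamic neurons, the region 651 bases before the start had a signal of 6.25 in sham, 15.9 after 6-OHDA and 20.4 with NDST3. The ratio was 2.33 for lesion over sham and 2.96 for treated over sham, and the Pou3f2 RNA was not higher in the lesion library (22.4 CPM against 37.4 and 44.7 CPM in sham). At Pou2f1 the region 79 bases before the start had 11.1, 18.6 and 29.5, and the region 269 bases before it 16.7, 14.4 and 20.4, in the order sham, 6-OHDA and treated. Over all regions the medians were 14.9, 16.4 and 22.9 in that order, so the median of the whole table was highest with NDST3. The members past the ratio of 2 were 1 of 3 regions for lesion against sham (12.2% of all regions), 0 of 3 for treated against lesion (11.0%) and 2 of 3 for treated against sham (26.1%).

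The ATAC-seq table, which measures open chromatin in 1 library per group, holds 3582 regions, of which 5 belong to members. The open starts were Dlx5 (11 bases after the start) with a signal of 41.3 in sham, 39.5 after 6-OHDA and 29.9 with NDST3, Six4 (368 bases before it) with 27.1, 34.0 and 39.4, and Pou2f1 (32 bases after it) with 29.0, 26.5 and 23.5. Hoxd8 (337 bases before the start) had 3.9, 4 and 10.5, a ratio of 2.62 for treated over lesion, from a signal in the lowest 4.62% of regions after 6-OHDA. Dlx6 (818 bases before it) had 3.4, 5 and 3.5. At a ratio of 2, 0 of 5 regions differed for lesion against sham (13.1% of 3537 regions with all 3 values), 1 of 5 for treated against lesion (10.3%) and 1 of 5 for treated against sham (17.2%), Hoxd8 in both cases. Pax7, Pax8, Lhx1, Lhx5 and Six2 had no region in either table, so nothing can be said here of their chromatin.

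**Figure D4:**
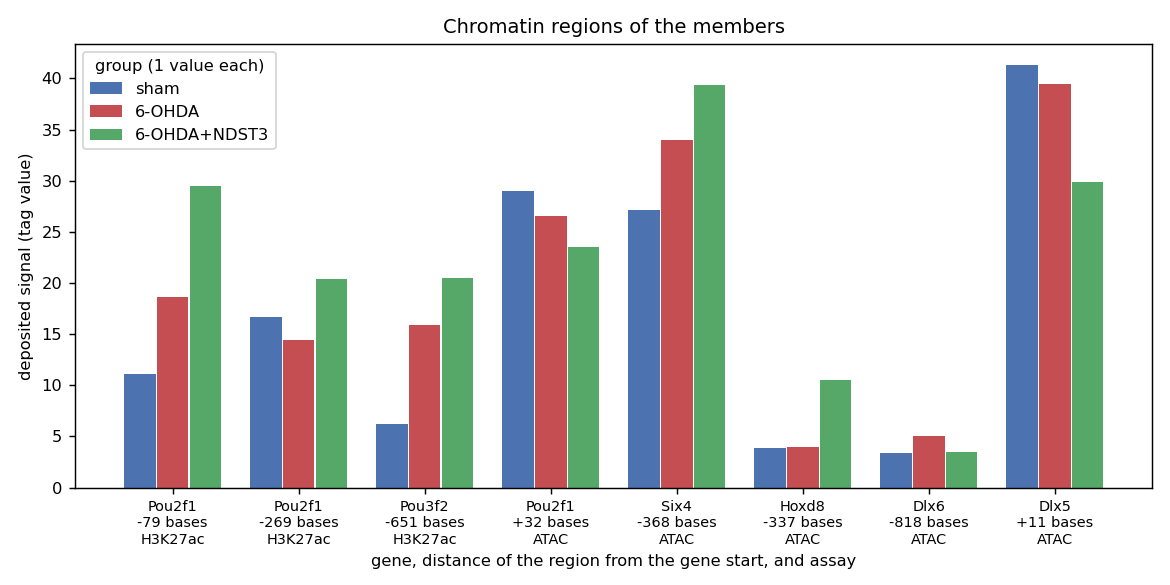
Deposited signal at the 3 H3K27ac and 5 ATAC regions assigned to members, with a bar for each group, named by gene, distance from the gene start and assay. The H3K27ac bars at Pou3f2 go from 6.25 in sham to 20.4 with NDST3, and the ATAC bars at Hoxd8 from 3.9 to 10.5. Bars are single deposited values with no replicate error.

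The scRNA-seq table gives the mean of each gene in 9 clusters of cells, for 1 library of 6-OHDA and 1 of 6-OHDA+NDST3. Its headers call the values mean counts, but they were read here as means of the natural log of counts per 10000, the normalization that the study's methods describe, and the differences on the log2 scale given further on hold only on that reading. Cells with very many detected genes had been removed to limit multiplets, no doublet caller is named in the sources used here, and doublets cannot be looked for in cluster means. Sham cells were not analysed here. The means carry no cell numbers and no replicates, so there is no test. Among the 74 members listed there, 14 had a mean above 0.1 in any cluster (18.9%, against 46.0% of all genes), and 1 was at 0 in all 18 means. Several members called in bulk RNA were near the floor, with highest means of 0.0185 for Pax7, 0.017 for Lhx1, 0.0626 for Six2 and 0.0205 for Lhx6. None of the 21 Hox genes in the table rose above 0.0483.

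Pou2f2 was the member with the highest mean, and its highest values lay in the immune clusters 1, 3, 6 and 9. It had 1.34 in 6-OHDA and 1.32 in the treated library in cluster 6, where the microglial P2ry12 was highest (1.86 and 1.74), 1.31 and 1.23 in cluster 1, which held the neutrophil gene S100a8 (1.34 and 1.38), 1.10 and 1.04 in cluster 3, and 1.26 and 1.04 in cluster 9, which held the B cell gene Cd79a (3.23 and 3.03). It was lower in cluster 4, at 0.316 and 0.258, where the T cell gene Cd3e was at 1.62 and 2.17. In cluster 8, with Cd3e at 0.87 and 1.3, Pou2f2 had 0.343 and 0.47. In cluster 7, with the endothelial gene Cldn5 at 3.66 and 3.76, Pou2f2 was at 0.0971 and 0.10. Pou2f1 had a narrower range over the 9 clusters, from 0.189 to 0.447.

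Nkx6-1 was high in cluster 5, at 0.474 and 0.458, where the mural genes Acta2 (3.73 and 3.95) and Pdgfrb (1.13 and 1.22) were highest, and otherwise passed 0.1 only in cluster 2 of the 6-OHDA library. Pou6f1 was highest in cluster 4 in the 6-OHDA library, at 0.513, where the T cell gene Cd3e was at 1.62. In the treated library it had 0.226 there, with Cd3e at 2.17, and was highest in cluster 2, at 0.327. The other 10 detected members, among them Irx2, Irx3, Irx5, Nkx6-2, Pax3, Pax6, Pou3f2, Pou3f3 and Pou3f4, passed 0.1 in cluster 2 alone, with Irx5 at 0.279 and 0.262, Pou3f2 at 0.271 and 0.309 and Pax3 at 0.208 and 0.204. Cluster 2 held the astrocyte gene Aqp4 (0.701 and 0.688), the fibroblast gene Dcn (0.31 and 0.28) and the choroid plexus gene Ttr (0.941 and 0.882) together, and the neuronal gene Rbfox3 at only 0.0224 and 0.00462, so the cells in which Irx, Pax3 and Pou3f genes were read are not resolved further. Outside cluster 2 these 10 genes had means of 0.0341 or less, while the choroid plexus gene Ttr had 0.107 to 0.412 in the other 8 clusters.

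**Figure D5:**
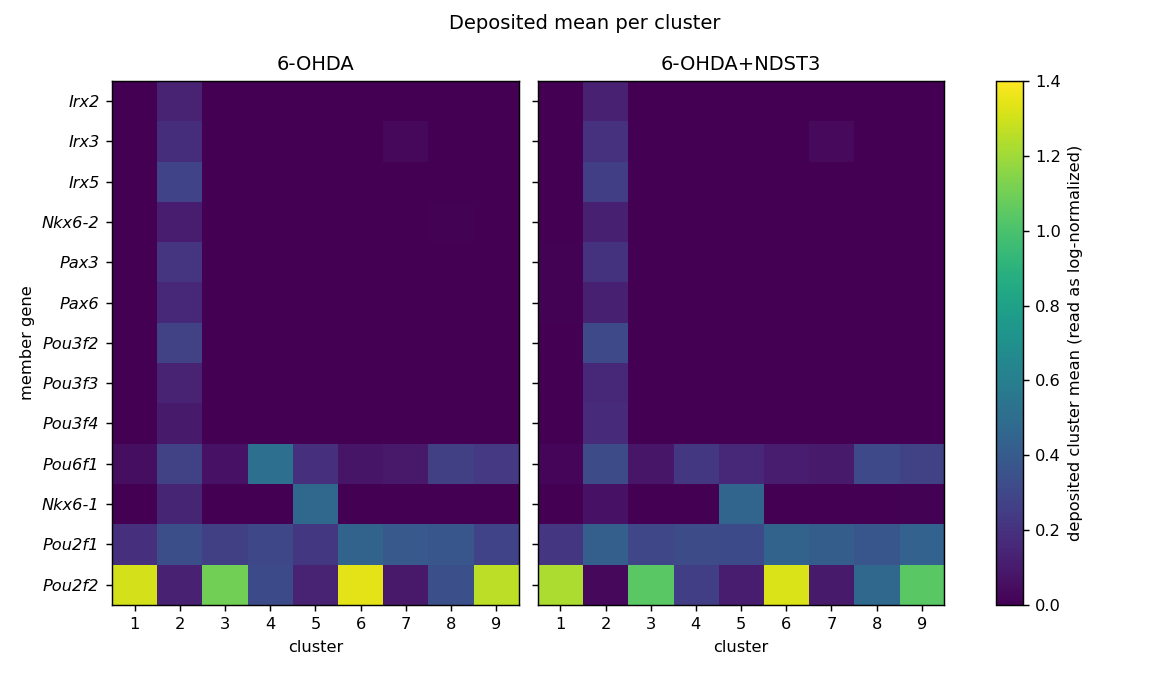
Mean level of 13 of the members above 0.1 in any of the 9 clusters, in the 6-OHDA library (left) and the 6-OHDA+NDST3 library (right), as deposited and read as log-normalized. Pou2f2 fills clusters 1, 3, 6 and 9, Nkx6-1 stands out in cluster 5, and the Irx, Pax and Pou3f members pass 0.1 in cluster 2 alone.

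Between the 2 single-cell libraries, no member differed by 1 on the log2 scale so derived in any cluster, beside 0.0125% of all gene and cluster pairs. The largest differences were Pou6f1 in cluster 4, at -0.42 for NDST3 against 6-OHDA, and Pou2f2 in cluster 9, at -0.32. With single libraries and no cell numbers, neither can be set against a replicate error.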

How the data were processed

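RNA-seq counts and FPKM values per gene were deposited by the authors for 5 libraries. H3K27ac CUT&RUN (2 libraries per group in 1 pooled column) and ATAC-seq (1 library per group) signal per region was deposited as group values whose scaling is not stated, and cluster means of scRNA-seq were deposited under headers that call them mean counts and were read as natural log values. The submitters' processing notes name bcl2fastq, Trim Galore, Bowtie, Cell Ranger and mm10. Of the regions whose gene is in the GRCm38 promoter table, only 2.8% (H3K27ac) and 8.17% (ATAC) imply a gene start within 5 bases of it, so region coordinates and sequence were not used, only distances to the start.

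Counts were tested in edgeR 4.0.16 (R 4.3.3; quasi-likelihood, TMM factors, filterByExpr, all 5 libraries in 1 fit, Benjamini-Hochberg over 19300 genes). The fit had 2 residual degrees of freedom and a biological coefficient of variation of 20.3%. CPM was scaled to 1000000 counted reads with the TMM factors. Alternatives were DESeq2 1.42.0, limma 3.58.1 with 1 or 0.1 added to the FPKM before taking log2, other scalings and filters, a replicate block, and each library left out. The fitting code was tested on simulated data. Intervals on single libraries cover counting error only. Named members were those called with a mean of at least 1 CPM, the highest by FPKM and the most different from sham in each family, the members beside the low-count filter, those with a chromatin region and those above 0.1 in a single-cell cluster. Members and lists were chosen with earlier results of these data known. A few genes counted among the members and lists are not reported by name here.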

Additional observations from a re-analysis of the deposited data

How the results depend on the processing

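No called member changed direction under any of the 14 alternatives in which it was tested. After 6-OHDA against sham, 14 members passed the adjusted p of edgeR, 6 with the replicate block and 0 to 18 with a library left out. By fold and raw p there were 19, which became 11 with a CPM of at least 1 in 2 libraries, 8 with limma on log2(FPKM + 1) and 10 to 19 with a library left out. For 6-OHDA+NDST3 against 6-OHDA, 7 passed the adjusted p, 4 with the stricter filter, 12 in DESeq2, 0 with the replicate block, 0 with only the 2 groups, and 0 to 13 with a library left out. By fold and raw p there were 15, which became 9 with the stricter filter, 6 with limma on log2(FPKM + 1) and 11 to 17 with a library left out. For 6-OHDA+NDST3 against sham, 0 passed the adjusted p, with any single library left out too, and 3 did so in DESeq2. By fold and raw p there were 2, which became 1 with the stricter filter, 4 in DESeq2, 0 and 1 with limma at a pseudocount of 1 and 0.1, 1 with only the 2 groups, and 1 to 9 with a library left out. With the stricter filter, 15 of the 21 values called by adjusted p were still tested and all 15 passed, while the rest were left untested. The cause of the other shifts was not tested. Over all genes, the adjusted calls for 6-OHDA against sham numbered 6916, and 1796 with the replicate block. For 6-OHDA+NDST3 against 6-OHDA they numbered 3019, 5262 in DESeq2 and 3405 with the stricter filter. With the replicate block or only the 2 groups they were 0. For 6-OHDA+NDST3 against sham they numbered 0, and 1048 in DESeq2. By fold and raw p, 4731 genes were called for 6-OHDA against sham, and 2683 with limma on log2(FPKM + 1). Same-numbered sham and treated libraries deviated in opposite directions (correlation across genes -0.432), and the labels do not say that the numbers pair animals. A block with the treated numbers crossed, chosen after seeing the data, gave 16, 10 and 1 members at the adjusted p and 15, 10 and 4 by fold and raw p, in the same order of comparisons. Members' regions past a ratio of 1.5 numbered 2 for H3K27ac in 6-OHDA against sham and 1 in 6-OHDA+NDST3 against 6-OHDA, where a ratio of 2 gave 1 and 0. In scRNA-seq 8 members had a mean above 0.2 against 14 above 0.1, and 2 differed by 0.25 on the log2 scale against 0 by 1. Depth limits Irx4, Lhx3 and Pou4f3, which had 2 or 3 reads in the lesion library, and the single lesion library limits every comparison that contains it.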
